A study of Mus musculus with 69 samples.

Results

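The entry of a cell into S phase is set by a small group of proteins, and the transcripts of 6 of these G1/S regulators were followed in mouse embryonic stem (ES) cells: the cyclins *Ccne1*, *Ccne2* and *Ccnd3*, the kinase gene *Cdk2*, the inhibitor gene *Cdkn1a* and the pocket protein gene *Rbl2*. They were found by name among the oligos of the arrays. Of the 6 genes, 4 (*Ccne1*, *Ccne2*, *Cdk2* and *Cdkn1a*) could be named on the time course arrays, among 5192 named genes, and 5 (all except *Ccne2*) on the arrays hybridized against a reference RNA, among 8973 named genes. On the time course arrays the oligos of *Ccnd3* and *Rbl2* are each assigned to a second gene as well, so no value over time is given for either. Another *Cdkn1a* oligo on these arrays is likewise assigned to 2 genes and was not used, so *Cdkn1a* rests on 1 oligo there. The *Ccne2* oligo is also assigned to *Ints8* and carries its name from the tables of the study.

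Samples of 2 ES cell lines were taken at 24, 48, 72, 96 and 120 h, 3 per line and time point except as follows. At 120 h of ZHTc6 cells the labels name only samples 2 and 3: 2 dye-swapped pairs carry the number 2, one of them beside 0 h RNA number 1. That pair is counted here as sample 1 by its 0 h RNA, so samples 1 and 2 of ZHTc6 cells at 120 h may be 1 sample. Both lines were derived from CGR8 ES cells and were grown without feeder cells in the presence of LIF. ZHTc6 cells are *Pou5f1*+/- cells with an Oct3/4 transgene that is silent with tetracycline (Tet), so that withdrawal of Tet adds Oct3/4. ZHBTc4 cells descend from ZHTc6 cells and have lost their second *Pou5f1* allele too. They live on the transgene alone, and addition of Tet shuts it off. Each sample was set against the 0 h RNA of its own line on a pair of dye-swapped arrays (60 arrays), so each value is a log2 ratio, time point against 0 h. A second set of 9 arrays had a universal mouse reference RNA in the other channel. It held 3 samples of each line at 0 h and 3 single samples of EB5 ES cells that received a control siRNA (siGFP) or siTcl1 at the doses labelled 560 uM and 1120 uM, then 24 h of puromycin selection. Each line is a single engineered line, and samples of different numbers measure the spread between cultures of it.

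Cyclins E1 and E2 activate Cdk2, which phosphorylates pocket proteins and starts DNA replication. Cyclin D3, with Cdk4 or Cdk6, also phosphorylates pocket proteins. The *Cdkn1a* product, p21, holds cyclin-Cdk2 complexes inactive, and the *Rbl2* product, p130, binds E2F factors and keeps their target genes silent in resting cells. Mouse ES cells are known for a short G1 phase with high cyclin E and Cdk2 activity, and G1 lengthens as they differentiate. Trophoblast giant cells, which arise from the lineage that Oct3/4 loss opens, copy their DNA repeatedly without dividing, a process in which E cyclins take part in mice.

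Whole-array facts bear on what follows. Over the 5 days the *Pou5f1* oligo fell by 2.41 on the log2 scale in ZHBTc4 cells, and in ZHTc6 cells its ratio was 0.12 at 24 h and 0.69 at 120 h. ES cell markers fell in ZHBTc4 cells for 11 of 11 genes and trophoblast markers rose for 7 of 8, while the 1 named marker of giant cells did not pass (-0.09). In that line 2 of 5 primitive endoderm markers rose and 1 fell, and 1 of 4 mesoderm markers rose and 1 fell. Of all features 46.5% passed there. In ZHTc6 cells, where 49.7% of all features passed, 10 of 11 ES markers fell and the other, *Pou5f1*, rose. Mesoderm markers rose there for 4 of 4 genes, primitive endoderm markers for 4 of 5 and trophoblast markers for 5 of 8. These ZHTc6 counts over 72 to 120 h alone were 9, 4, 2 and 4, where 29.3% of all features passed. On the reference arrays 8 of 8 ES markers lay above the reference RNA in every ES sample and 0 of 5 markers of fibroblast feeder cells did. In such bulk samples fewer cells of a type and less RNA per cell cannot be told apart, and the part of this change of cell type in the values of the G1/S genes was not tested. The 24 h and 48 h arrays of ZHTc6 cells stood apart in their spread. Their median absolute log2 ratio over all features was 0.306 to 0.607 per sample, against 0.131 to 0.243 at the later times of that line, and their median ratio was shifted by 0.10 at both times. The means of the 4 G1/S genes and the list counts over the 5 days in ZHTc6 cells are therefore also given over 72 to 120 h. That leaves these arrays out. For single list genes of ZHTc6 cells this is done only in part, so some of their values rest on these arrays too. The late minus early values of that line need the 24 h and 48 h arrays and cannot be given without them. Both arrays of each dye-swapped pair were also compared by Pearson's r over the kept oligos. In ZHTc6 cells r was 0.648 to 0.789 at 24 h and 0.611 to 0.688 at 48 h. It was 0.205 to 0.299 at 72 h of that line. In ZHBTc4 cells r was 0.0535 to 0.585 at 24 h and 0.140 to 0.647 at 48 h, so dye agreement was weak in some pairs there.

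Of the promoters of the 6 genes, 7 windows for 5 genes were found in the RefSeq table of mouse build GRCm38.p6 (300 bases around the start of the gene, none for *Ccne2*). Both strands were searched for 4 forms of the E2F site (TTTCCCGC, TTTCGCGC, TTTGCCGC and TTTGGCGC), for the octamer ATGCAAAT that Oct factors bind and for CCAAT. The *Cdk2* window held an E2F form on the reverse strand, which 2.26% of 32851 promoters hold, and CCAAT, which 37.4% hold. One of both *Ccnd3* windows held CCAAT. None of the 7 windows held the octamer, found in 1.74% of promoters, and no other match was seen. The windows of the kinase and of the cyclin with the most regular time course are shown, the first at chr10:128705002-128705301 and the second at chr7:38107441-38107740, both on the minus strand, with the matches in capitals.
Cdk2: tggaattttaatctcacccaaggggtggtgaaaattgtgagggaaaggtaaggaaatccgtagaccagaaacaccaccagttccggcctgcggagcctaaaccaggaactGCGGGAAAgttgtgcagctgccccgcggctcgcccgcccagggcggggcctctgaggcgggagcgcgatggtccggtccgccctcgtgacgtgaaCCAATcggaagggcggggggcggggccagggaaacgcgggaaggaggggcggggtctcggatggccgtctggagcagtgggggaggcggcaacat
Ccne1: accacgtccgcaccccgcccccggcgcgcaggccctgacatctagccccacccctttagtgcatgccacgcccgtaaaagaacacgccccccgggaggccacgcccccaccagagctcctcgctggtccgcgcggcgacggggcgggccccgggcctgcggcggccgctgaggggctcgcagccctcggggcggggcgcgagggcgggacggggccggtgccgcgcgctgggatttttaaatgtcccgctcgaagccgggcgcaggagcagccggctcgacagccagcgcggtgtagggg

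*Ccne1*, the gene of cyclin E1, was high at 24 h after Oct3/4 was shut off and then declined day by day. In ZHBTc4 cells its log2 ratios to 0 h were 1.41, 1.62 and 1.33 at 24 h in samples 1, 2 and 3, a 2.74-fold rise (mean 1.45 ± 0.15, SD, n = 3; adjusted p = 0.000137, limma's moderated test). They were 0.60, 0.67 and 0.58 at 48 h, 0.35, 0.36 and 0.35 at 72 h, 0.18, 0.21 and 0.14 at 96 h and -0.22, -0.07 and -0.28 at 120 h. The samples of neighbouring times did not overlap at any of the 4 steps. All 5 time points passed the test, the last with an adjusted p of 0.0492 that was lost under 11 of 18 other settings. In ZHTc6 cells, in which Oct3/4 was added, the ratio was 0.35, 0.15 and 0.24 at 24 h (adjusted p = 0.103) and 0.17, 0.11 and 0.16 at 48 h (adjusted p = 0.0799). With a replicate block in a fit over the whole course, both times passed, with adjusted p-values of 0.000275 and 0.0217 for *Ccne1*. It was -0.10, -0.14 and -0.20 at 72 h, -0.54, -0.45 and -0.57 at 96 h and -1.11, -1.13 and -1.16 at 120 h, a 2.19-fold fall by the last day (adjusted p = 8.38e-05). With both pairs labelled as sample 2 averaged, which leaves 2 samples at 120 h, *Ccne1* was at -1.14 (adjusted p = 0.00122). Only the samples of 24 h and 48 h overlapped. The mean of the cyclin was thus lower at each later time in both lines.

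*Ccne2*, the gene of cyclin E2, ran the other way. In ZHBTc4 cells its log2 ratios were 0.90, 1.53 and 0.41 at 24 h, 1.19, 1.60 and 1.19 at 48 h, 1.71, 2.86 and 2.16 at 72 h, 3.55, 3.48 and 2.40 at 96 h and 3.26, 2.92 and 2.21 at 120 h. The rise reached 8.84-fold at 96 h (mean 3.14 ± 0.64, SD, n = 3; adjusted p = 6.55e-05). Times before and after the step from 48 h to 72 h did not overlap, while 96 h and 120 h did. In ZHTc6 cells it was low first, at -2.40, -2.44 and -1.31 at 24 h and -2.07, -1.998 and -1.35 at 48 h, a 4.13-fold fall at 24 h (adjusted p = 0.000316). It returned to the 0 h level at 72 h, with 0.38, -0.17 and -0.12, and lay above it at 96 h, with 1.30, 1.202 and 1.12, a 2.31-fold rise (adjusted p = 0.00804). At 120 h the samples were at 1.16, 0.67 and 0.73 (adjusted p = 0.0177), a call that was lost with both pairs labelled as sample 2 averaged (0.83, adjusted p = 0.0693). The 2 low times are those of the arrays that stood apart, and their part in the fall was not tested. Both arrays of a pair differed more for this oligo than for the other 3, by a median of 0.452, and by 1.77 in sample 2 of ZHTc6 cells at 48 h (-2.88 and -1.11).

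*Cdk2*, the gene of the kinase that both E cyclins activate, had the smallest mean change of the 4 genes over the 5 days in ZHBTc4 cells, though not at every time. In ZHBTc4 cells its log2 ratios were -0.21, 0.01 and -0.27 at 24 h, -0.43, 0.01 and -0.10 at 48 h, -0.45, -0.09 and -0.19 at 72 h, -0.35, -0.05 and -0.23 at 96 h and -0.45, -0.08 and -0.37 at 120 h. All 5 times overlapped, sample 2 was the highest at each, and only 120 h passed the test (1.23-fold lower, adjusted p = 0.0257). In ZHTc6 cells it was lower at 24 h, with -0.85, -1.10 and -0.32, and at 48 h, with -0.78, -0.65 and -0.91, a 1.72-fold fall (adjusted p = 0.000765). These are again the arrays that stood apart. At 72 h the samples were at -0.13, -0.03 and -0.09, at 96 h at -0.31, -0.28 and -0.16 (adjusted p = 0.0394) and at 120 h at -0.14, -0.05 and 0.02. The dyes mattered for this oligo. With the time point in Cy5 its ratio was lower by a median of 0.250 than with the time point in Cy3, and in 9 of 30 pairs the 2 arrays had opposite signs, so the mean of the pair is the value to read.

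*Cdkn1a*, the gene of the Cdk inhibitor p21, climbed in both lines. In ZHBTc4 cells it was first lower, at -0.77, -0.63 and -0.66 at 24 h, a 1.61-fold fall (adjusted p = 0.00431), then stood at 0.16, 0.01 and 0.46 at 48 h (adjusted p = 0.214). It was 0.47, 0.35 and 1.07 at 72 h, 0.59, 0.38 and 1.15 at 96 h and 0.52, 0.42 and 0.94 at 120 h, and each of these 3 times passed (adjusted p = 0.0109, 0.00663 and 0.00348). The 24 h samples lay below all later ones, the times from 48 h on overlapped, and sample 3 was the highest from 48 h on. In ZHTc6 cells there was no dip, with 0.10, 0.07 and 0.18 at 24 h (adjusted p = 0.393), and the ratio then rose to 0.66, 0.62 and 0.95 at 48 h and 1.196, 1.21 and 1.16 at 72 h. It stayed there with 1.23, 1.14 and 1.27 at 96 h and 1.31, 1.43 and 1.13 at 120 h, a 2.45-fold rise (adjusted p = 0.000374). In ZHTc6 cells the samples of 24, 48 and 72 h did not overlap, while those of 72, 96 and 120 h did.

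**Figure D1:**
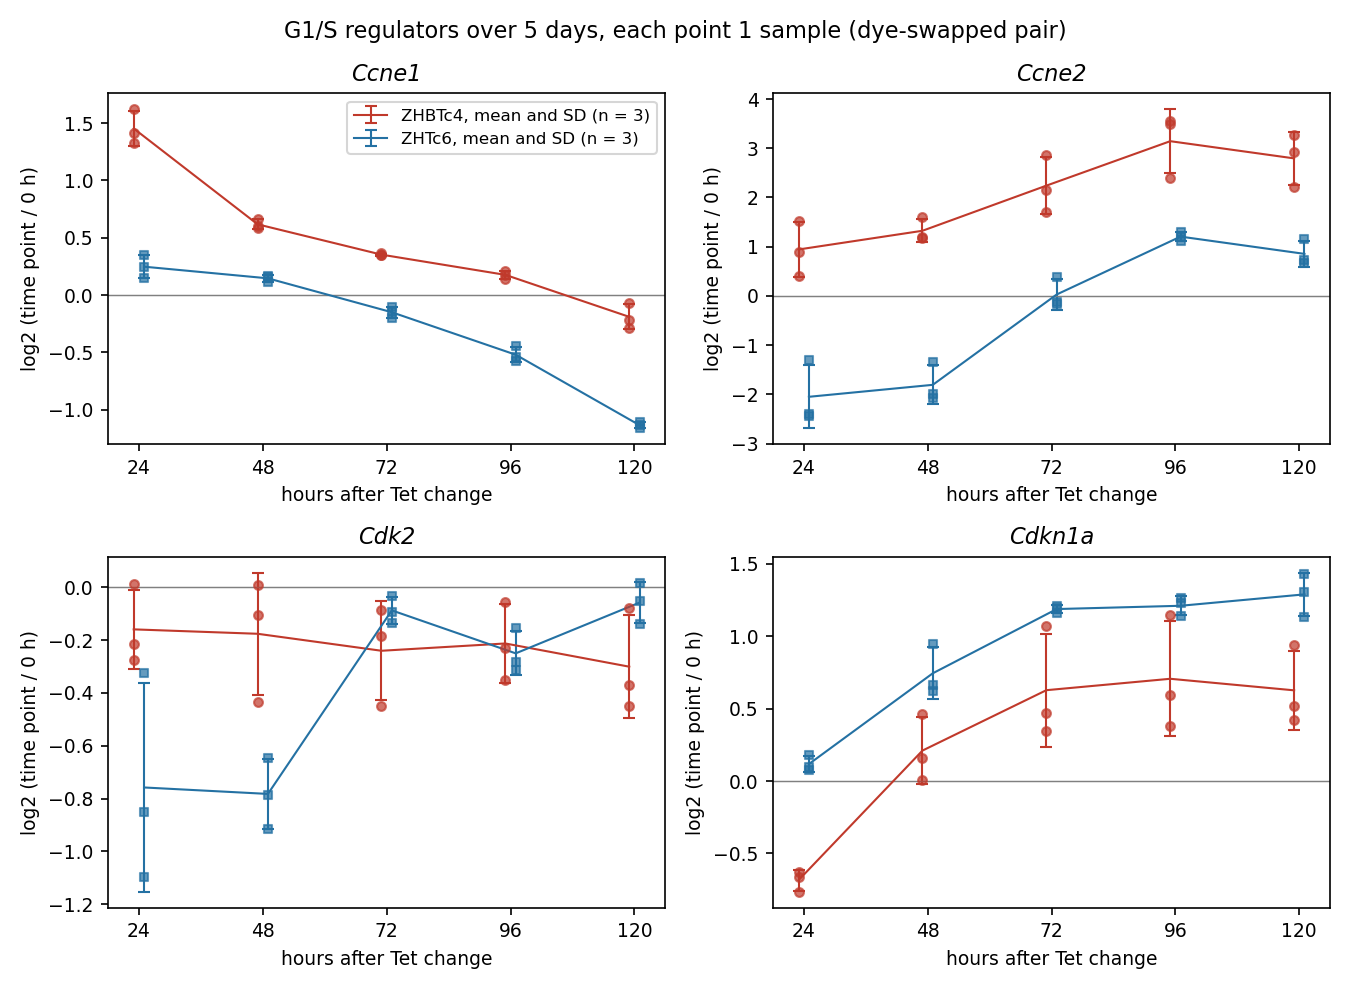
Log2 ratio against 0 h (y axis) against hours after the Tet change (x axis) for *Ccne1*, *Ccne2*, *Cdk2* and *Cdkn1a*. Points are samples (dye-swapped pairs), lines and bars are means and SDs of 3 samples, circles are ZHBTc4 and squares ZHTc6. *Ccne1* descends in both lines, from 1.45 to -0.19 and from 0.25 to -1.13, while *Ccne2* ascends in both, and the early ZHTc6 values of *Ccne2* and *Cdk2* lie lowest.

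Of the 4 genes, 3, 2, 3, 3 and 4 passed the test in ZHBTc4 cells at 24, 48, 72, 96 and 120 h, where 14.1%, 25.9%, 39.8%, 46.0% and 45.6% of all 20609 features passed. In ZHTc6 cells 2, 3, 1, 4 and 3 passed, where 55.5%, 60.4%, 19.3%, 34.7% and 28.8% of all features did.

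Over the mean of the 5 days, *Ccne1* was higher than at 0 h in ZHBTc4 cells and lower in ZHTc6 cells. Its sample means were 0.46, 0.56 and 0.42 in ZHBTc4 cells (mean 0.48, SE 0.05, adjusted p = 0.000137) and -0.25, -0.29 and -0.31 in ZHTc6 cells (mean -0.28, adjusted p = 0.00354). The lines differed by -0.76 (ZHTc6 minus ZHBTc4, SE 0.07, adjusted p = 0.000156). *Ccne2* had sample means of 2.12, 2.48 and 1.67 in ZHBTc4 cells (4.26-fold, adjusted p = 1.67e-05) and of -0.32, -0.55 and -0.19 in ZHTc6 cells (adjusted p = 0.0711), with a difference between the lines of -2.44 (SE 0.20, adjusted p = 9.44e-05). With the 120 h pairs as labelled, *Ccne2* passed in ZHTc6 cells (-0.46, adjusted p = 0.0344). *Cdkn1a* had 0.19, 0.11 and 0.59 in ZHBTc4 cells (adjusted p = 0.0286) and 0.90, 0.89 and 0.94 in ZHTc6 cells (1.88-fold, adjusted p = 0.000287), and was higher in ZHTc6 cells by 0.61 (SE 0.13, adjusted p = 0.00737). *Cdk2* had -0.38, -0.04 and -0.23 in ZHBTc4 cells (adjusted p = 0.0398) and -0.44, -0.42 and -0.29 in ZHTc6 cells (adjusted p = 0.00457). Its difference between the lines of -0.17 (SE 0.10) did not pass (adjusted p = 0.217). So 4 of 4 genes passed in ZHBTc4 cells (46.5% of all features did), 3 of 4 in ZHTc6 cells (49.7%) and 3 of 4 differed between the lines (41.4%). The small ZHBTc4 values of *Cdk2* and *Cdkn1a* hang on single samples. Without ZHBTc4 sample 1 *Cdk2* was at -0.14 (adjusted p = 0.185), and of the 6 samples only ZHBTc4 sample 2 could be left out of the shared fit without losing its call. Without ZHBTc4 sample 3 *Cdkn1a* was at 0.15 (adjusted p = 0.0700), and without ZHTc6 sample 3 its adjusted p was 0.0502.

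With the 24 h and 48 h arrays left out, a setting chosen after seeing the data, *Ccne2* in ZHTc6 cells changed its sign. Over 72 to 120 h it was 1.62-fold higher (0.70, SE 0.16, adjusted p = 0.0147), and in ZHBTc4 cells it was 6.62-fold higher. *Cdk2* no longer passed in ZHTc6 cells (-0.13, adjusted p = 0.214) and was at -0.25 in ZHBTc4 cells (adjusted p = 0.0220). *Ccne1* was at 0.11 in ZHBTc4 cells, which did not pass (adjusted p = 0.0831), and 1.52-fold lower in ZHTc6 cells. *Cdkn1a* was 1.57-fold higher in ZHBTc4 cells and 2.35-fold higher in ZHTc6 cells. On these times 3 of 4 genes passed in each line (51.1% and 29.3% of features), and the same 3 genes differed between the lines as over 5 days (33.2% of features): *Ccne1* by -0.71, *Ccne2* by -2.03 and *Cdkn1a* by 0.58.

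Sample numbers mark a shared 0 h RNA, and a number need not be 1 culture followed over time. The late minus early value of a number is the mean of its late times (72, 96 and 120 h) less that of its early times (24 and 48 h). It is free of the 0 h RNA, which drops out. By this measure *Ccne1* fell in both lines, by 0.90, 0.97 and 0.89 in ZHBTc4 cells (adjusted p = 6.41e-05) and by 0.84, 0.70 and 0.85 in ZHTc6 cells (adjusted p = 3.96e-05), and the difference between the lines was 0.12 (SE 0.10, adjusted p = 0.326). *Cdkn1a* rose in both, with 0.83, 0.69 and 1.15 in ZHBTc4 cells (adjusted p = 0.000509) and 0.86, 0.91 and 0.62 in ZHTc6 cells (adjusted p = 0.000287), and a difference of -0.09 (SE 0.15, adjusted p = 0.622). *Ccne2* rose by 1.79, 1.52 and 1.46 in ZHBTc4 cells (adjusted p = 0.000827) and by 3.18, 2.79 and 1.90 in ZHTc6 cells (adjusted p = 2.24e-05), more in the latter by 1.03 (SE 0.29, adjusted p = 0.0176). Without ZHTc6 sample 1 this difference was 0.75 (adjusted p = 0.0532), and without ZHTc6 sample 2 it was 0.95 (adjusted p = 0.0549). *Cdk2* had -0.09, -0.08 and -0.07 in ZHBTc4 cells (adjusted p = 0.458) and rose by 0.62, 0.75 and 0.54 in ZHTc6 cells (adjusted p = 0.000132), a difference of 0.72 (SE 0.10, adjusted p = 0.000723). In all, 3 of 4 genes passed in ZHBTc4 cells (28.3% of features), 4 of 4 in ZHTc6 cells (66.9%) and 2 of 4 differed between the lines (57.7%). The ZHTc6 early means are those of the arrays that stood apart.

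**Figure D2:**
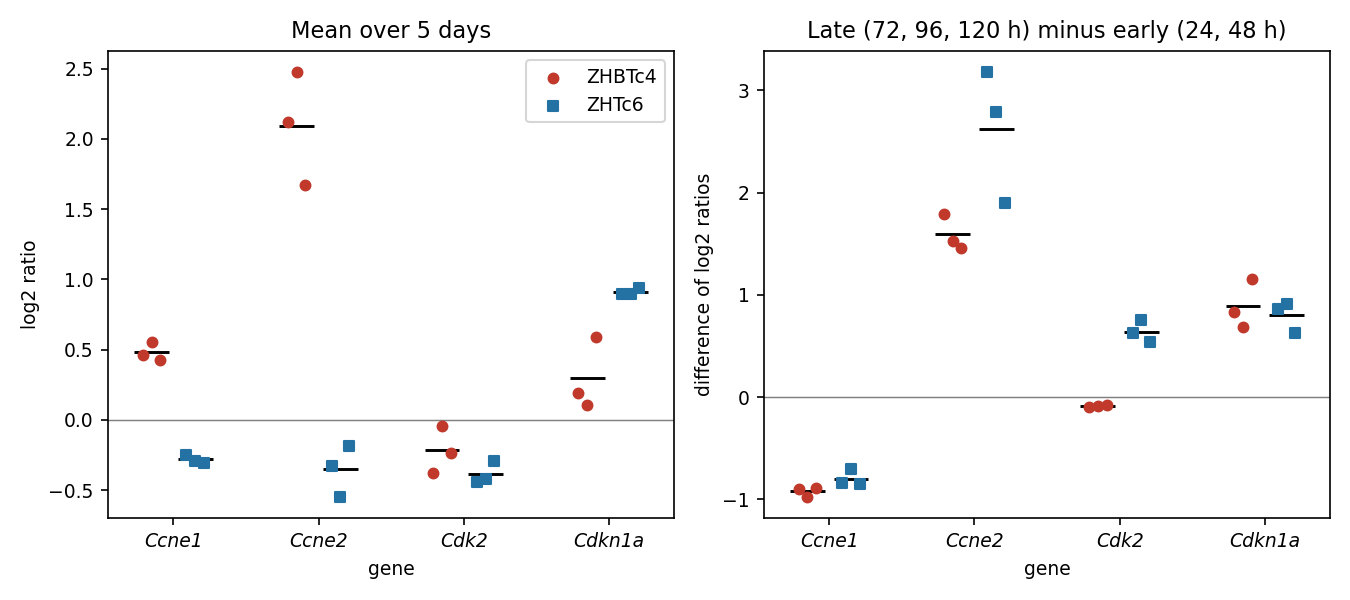
Mean log2 ratio over the 5 days (left) and late minus early times (right, difference of log2 ratios) for the 4 genes named on the time course arrays. Points are sample numbers, circles ZHBTc4 and squares ZHTc6, and bars are means of 3 sample numbers. The lines lie apart for *Ccne1*, *Ccne2* and *Cdkn1a* on the left, while *Ccne1* falls by 0.92 and 0.80 and *Cdkn1a* rises by 0.89 and 0.80 on the right.

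Undifferentiated cells of both lines were set against the reference RNA to ask with which levels they started. *Ccne1* was higher in ZHTc6 cells, with log2 ratios to the reference of 1.64, 1.499 and 1.38 in ZHBTc4 cells and 2.63, 2.67 and 2.50 in ZHTc6 cells, a 2.13-fold difference (adjusted p = 0.0111). *Cdkn1a* was lower in ZHTc6 cells, with 0.26, 0.33 and -0.28 in ZHBTc4 cells and -1.03, -1.11 and -0.80 in ZHTc6 cells, a 2.11-fold difference (adjusted p = 0.0321). *Rbl2* was also lower in ZHTc6 cells, with -0.42, -0.75 and -0.95 against -1.54, -1.51 and -1.33, a 1.68-fold difference (adjusted p = 0.0478). The groups did not overlap for these 3 genes.

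The other 2 genes did not pass at 0 h. *Ccnd3* had 0.63, 0.62 and 0.61 in ZHBTc4 cells and 0.65, 0.64 and 0.56 in ZHTc6 cells, a difference of -0.00 (SE 0.08, adjusted p = 0.993). *Cdk2* had 0.31, 0.12 and 0.30 against 0.36, 0.29 and 0.22, a difference of 0.05 (SE 0.09, adjusted p = 0.766). Thus 3 of 5 genes differed, where 8.62% of 18443 features did. With ZHTc6 sample 1, 2 or 3 or ZHBTc4 sample 1 left out, none of the 3 passed, and without ZHBTc4 sample 2 only *Ccne1* did, while the difference of *Ccne1* stayed between 1.03 and 1.16. These 6 arrays all had the sample in Cy3, with no dye swap. The array numbers in their titles fall in separate ranges for the lines. By the design ZHTc6 cells were kept with Tet until 0 h and ZHBTc4 cells without it, so line and Tet differ together here. The part of Tet, of the dye or of the arrays in these differences was not tested. The time course ratios of a line rest on its 0 h RNA, so the values above are not levels that can be set against each other between lines: *Ccne1* started higher and *Cdkn1a* lower in ZHTc6 cells.

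In EB5 cells siTcl1 asked whether loss of Tcl1, a coactivator of the kinase Akt, touches the same genes. There was 1 array per group, so no test was possible and the differences have no replicate check. *Tcl1* itself had log2 ratios to the reference of 4.29 with siGFP, 2.56 with the lower and 2.09 with the higher dose, which is 3.32-fold and 4.58-fold lower than with siGFP. *Ccnd3* had 0.83, 0.46 and 0.13, and *Cdk2* 0.64, 0.27 and 0.18, in the same order. Against siGFP, *Ccnd3* was thus 1.30-fold and 1.63-fold lower and *Cdk2* 1.29-fold and 1.38-fold lower. *Rbl2* had -1.25, -0.96 and -0.71, which is 1.22-fold and 1.45-fold higher. *Cdkn1a* had -1.46, -1.45 and -1.19, differences of 0.01 and 0.26. *Ccne1* had 2.01, 2.39 and 2.08, differences of 0.38 and 0.07.

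A limit of 1.5-fold at both doses in one direction was passed by 0 of the 5 genes and by 5.57% of all features. Without replicates, the size of these steps can be read only against the other features. The share of features at least as far in the same direction at both doses was 4.93% for *Ccnd3*, 5.13% for *Cdk2*, 9.43% for *Rbl2*, 24.8% for *Ccne1* and 33.2% for *Cdkn1a*, against 0.0976% for *Tcl1*. The median absolute difference over all features was 0.170 at the lower and 0.202 at the higher dose.

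**Figure D3:**
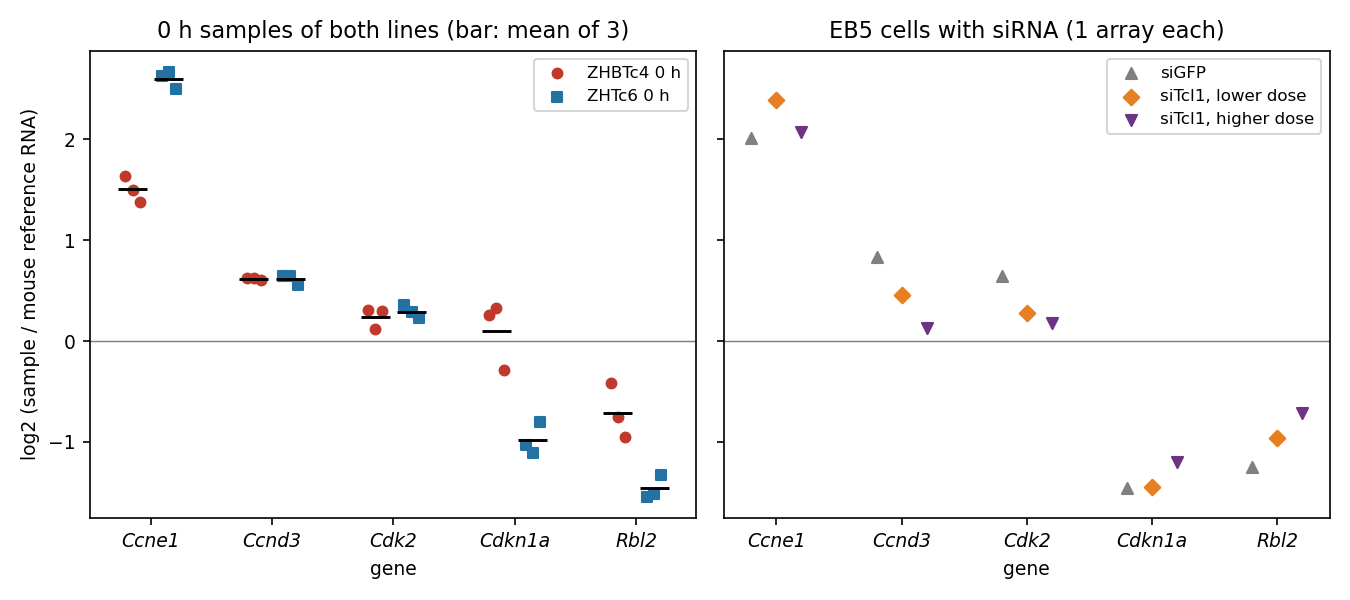
Log2 ratio of the sample over the mouse reference RNA (y axis) for the 5 genes named on these arrays. Left, the 3 samples of each line at 0 h with bars at the means; right, single EB5 arrays with siGFP and both doses of siTcl1. The lines separate for *Ccne1*, *Cdkn1a* and *Rbl2*, and *Ccnd3* steps from 0.83 to 0.46 and 0.13 over the siRNA arrays.

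Other genes of the same pathway were taken from 8 lists and are given by their mean over the 5 days. Over all features, 46.5% passed in ZHBTc4 and 49.7% in ZHTc6 cells over the 5 days, and 29.3% in ZHTc6 cells over 72 to 120 h, and the counts of each list stand against these shares. Among G1/S cyclins and kinases, 1 of 5 named genes rose and 4 fell in ZHBTc4 cells (median -0.17, against -0.00 over all features). *Ccnd2*, the gene of cyclin D2, fell by 0.82 and *Mnat1*, which assembles the Cdk-activating kinase, fell by 0.80, while *Ccnh*, the cyclin of that kinase, rose by 0.58. In ZHTc6 cells 1 rose and 2 fell (median -0.14, against 0.07 over all features): *Cdk4* was at 0.17, *Mnat1* at -0.42 and *Ccnh* at -0.41. Of these 5 genes 1 rose over 72 to 120 h in ZHTc6 cells and 0 fell. Over those times *Ccnh* was at 0.12 (adjusted p = 0.0859, limma), *Mnat1* at -0.12 (adjusted p = 0.179) and *Cdk4* at 0.16 (adjusted p = 0.0690). The only other Cdk inhibitor gene named there, *Cdkn1b* (p27), fell by 0.66 in ZHBTc4 cells (adjusted p = 0.00284) and was at 0.02 in ZHTc6 cells (-0.28 over 72 to 120 h, adjusted p = 0.186). *Cdkn1b*, 1 of 5 Cdk inhibitor genes of the list named on the reference arrays, was also the only gene of the 8 lists past 1.5-fold at both doses of siTcl1. In the order of the text, the lists held 8, 5, 13, 9, 22, 9, 12 and 9 genes named on those arrays. Of all features, 5.57% passed that limit. *Cdkn1b* was at 1.08 and 1.23 above siGFP. Both differences share the single siGFP array.

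Among pocket proteins and E2F factors, 5 of 9 named genes rose and 3 fell in ZHBTc4 cells (median 0.40, where 46.5% of all features passed), and 0 rose and 3 fell in ZHTc6 cells (median -0.05, where 49.7% did). The repressor genes *E2f8* and *E2f7*, whose products are needed for the polyploid cycles of mouse trophoblast giant cells, rose in ZHBTc4 cells by 1.22 and 0.90. *Mybl2*, a gene that E2F factors drive in cycling cells, fell by 1.54 and *Lin52*, of the complex that binds p130, by 0.77. In ZHTc6 cells *Tfdp2*, the gene of an E2F partner, was at -0.69 and *Lin52* at -0.36. Of these 9 genes, over 72 to 120 h, 5 rose and 4 fell in ZHTc6 cells, where 29.3% of all features passed.

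Among genes for the turnover of G1/S regulators, 2 of 6 rose in ZHBTc4 cells and 0 fell (median 0.11), where 46.5% of all features passed. *Cul1*, the scaffold of the SCF ubiquitin ligase that clears cyclin E, rose by 1.21 and *Ccnf* by 0.48. In ZHTc6 cells *Ccnf* rose by 0.31 and *Skp2*, the SCF subunit that targets p27, fell by 0.38 (median -0.05), where 49.7% of all features passed. Over 72 to 120 h (29.3% of all features) 2 rose and 0 fell in that line, *Cul1* at 0.70 and *Ccnf* at 0.32, and *Skp2* was at -0.03 (adjusted p = 0.859). Of the origin licensing and firing genes, 5 of 13 rose and 5 fell in ZHBTc4 cells (median -0.02). *Orc4*, of the origin recognition complex, and *Rrm1*, of ribonucleotide reductase, rose by 1.04 and 0.91, while the helicase gene *Mcm6* fell by 1.02 and the clamp gene *Pcna* by 0.61. In ZHTc6 cells 0 rose and 8 fell (median -0.21), led by *Dbf4*, the partner of the kinase Cdc7, at -0.91 and *Orc4* at -0.59. Over 72 to 120 h 1 rose and 5 fell in that line. *Dbf4* was then at -0.32 (adjusted p = 0.00780, limma) and *Orc4* at 0.33 (adjusted p = 0.0625).

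Against the same shares of all features (46.5%, 49.7% and 29.3%), of the G2/M cyclins and kinases 1 of 4 rose in ZHBTc4 cells, *Wee1*, the gene of the kinase that restrains Cdk1, at 0.47 (list median 0.16). In ZHTc6 cells 1 rose and 2 fell (median -0.18): *Plk1* was at 0.19, *Cdk1* at -0.49 and *Wee1* at -0.42, and over 72 to 120 h 0 of the 4 passed in limma's fit, while 1 with a higher and 1 with a lower ratio had an unadjusted p under 0.05. Of p53 and its targets, the group to which *Cdkn1a* belongs by regulation, 4 of 10 rose and 5 fell in ZHBTc4 cells (median -0.20), and 5 rose and 2 fell in ZHTc6 cells (median 0.22). *Perp* rose in both lines, by 2.71 and 0.79. *Ccng1* rose by 1.01 in ZHBTc4 cells, *Zmat3* and *Trp53inp1* fell there by 0.81 and 0.62, and in ZHTc6 cells *Pmaip1* rose by 0.82 and *Plk2* by 0.81, while *Trp53inp1* fell by 0.69 and *Sesn1* by 0.34. Over 72 to 120 h 6 of the 10 rose in ZHTc6 cells and 0 fell (0 also at an unadjusted p under 0.05), and *Trp53inp1* was at 0.34 there. Of the Akt signalling genes, 2 of 9 rose and 5 fell in ZHBTc4 cells (median -0.18), and 2 rose and 3 fell in ZHTc6 cells (median -0.13). *Akt1* rose by 1.14 and 0.42 in the lines and *Pik3ca*, a catalytic subunit of PI3 kinase, fell by 1.15 and 1.20. Over 72 to 120 h 2 of these 9 genes rose and 1 fell in ZHTc6 cells, with *Akt1* at 0.21 and *Pik3ca* at -0.93. *Akt2* fell by 1.03 in ZHBTc4 cells.

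**Figure D4:**
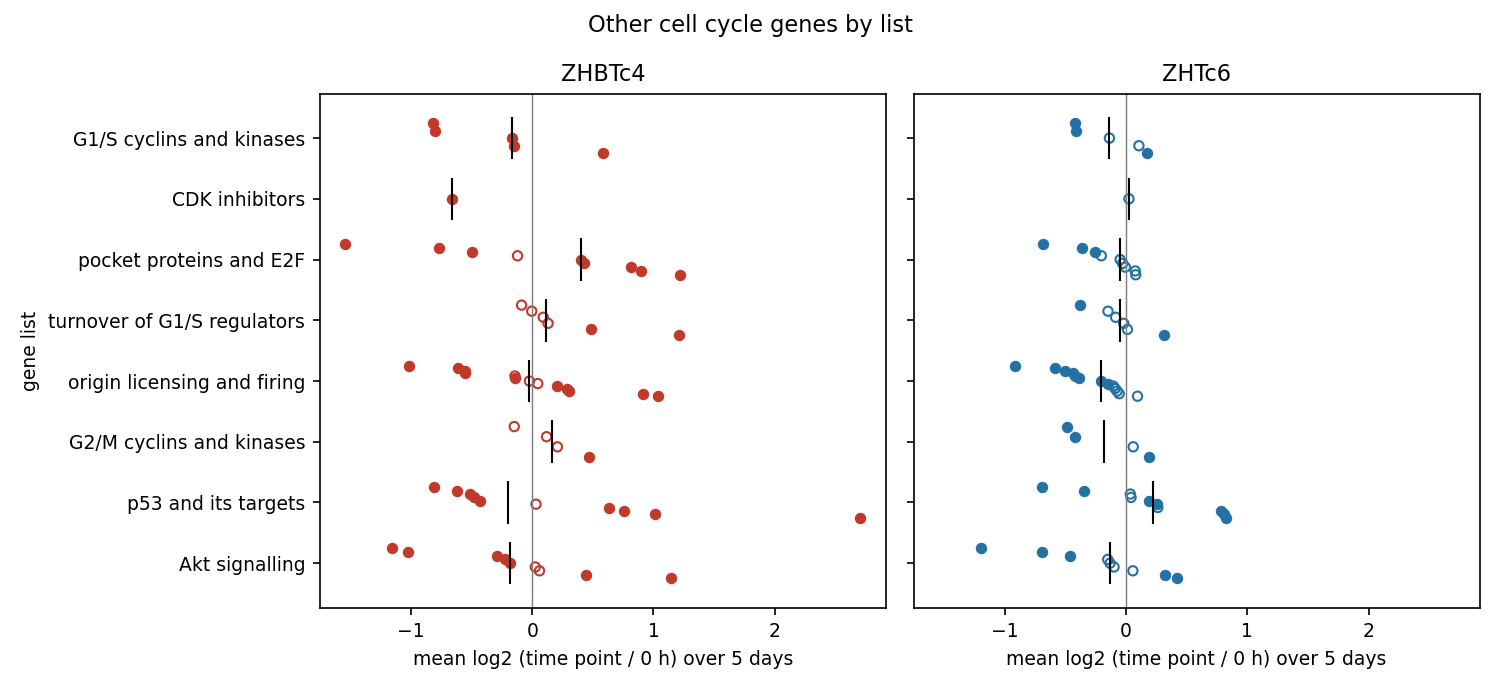
Mean log2 ratio over the 5 days (x axis) of the named genes of 8 lists (y axis) in ZHBTc4 (left) and ZHTc6 cells (right). Each point is a gene, filled where it passed the test, and the vertical bars are list medians. Genes lie on both sides of 0 in most lists, and *Perp*, at 2.71 in ZHBTc4 cells, lies farthest to the right.

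Patterns across both lines were compared by Pearson's r over the 10 means of line and time point, a description in which all points of a line share its 0 h RNA. *Ccne1* and *Cdkn1a* had opposite courses (r = -0.91), *Ccne1* and *Ccne2* had an r of -0.02, and *Ccne2* and *Cdk2* had an r of 0.69. The last r includes the 24 h and 48 h means of ZHTc6 cells, where both genes were lowest. From 24 h to 120 h in ZHBTc4 cells *Ccne2* went from 0.94 to 2.79 and *Cdk2* from -0.16 to -0.30. For pairs of the 4 genes, r was not taken without these arrays of ZHTc6 cells. Among named genes with a mean of at least 0.5 on the log2 scale somewhere, those most like *Ccne1* were *Mbd3* (0.96), a subunit of the NuRD complex, *Timm10* (0.95), of mitochondrial protein import, and *Gpx1* (0.94), the glutathione peroxidase. Those most like *Ccne2* were *Nsd2* (0.995), a histone methyltransferase, *Pdcl3* (0.993) and *Arcn1* (0.992), a coat protein of vesicles. For *Cdkn1a* they were *Junb* (0.94), *Ier3* (0.93) and *Kdm6b* (0.91), the first and second of which are immediate early genes. For *Cdk2* they were *Cops8* (0.97) and *Cops3* (0.97), both of the COP9 signalosome, and *Asnsd1* (0.95). Over the 8 means without the 24 h and 48 h arrays of ZHTc6 cells, r stayed at 0.90 or above for the genes like *Ccne1*, *Ccne2* and *Cdkn1a*, and was 0.85, 0.57 and 0.32 for those like *Cdk2*. All these genes were picked for a high r out of 4448 candidates. The 8 means are part of the 10, so a high r over them is no separate check.

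**Figure D5:**
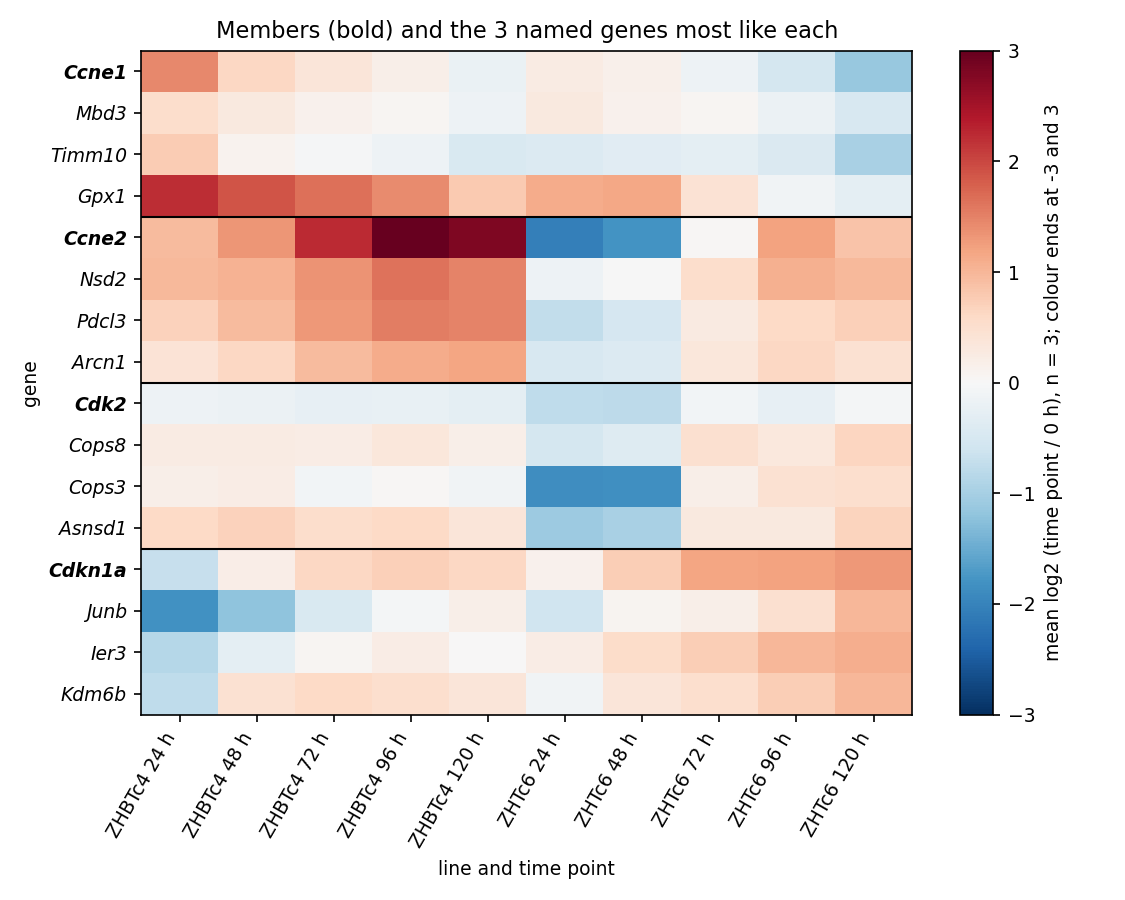
Mean log2 ratio against 0 h (colour, n = 3 samples) by line and time point (x axis) for the 4 G1/S genes in bold and the 3 named genes most like each (y axis). The blocks of *Ccne2* and *Cdk2* share low values at 24 h and 48 h in ZHTc6 cells, and *Cops3* reaches -1.87 there.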

How the data were processed

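The values deposited by the authors are log10 ratios of Cy5 over Cy3 from Agilent Feature Extraction (version not given in the sources used here), on 60-mer oligo arrays, with no intensities. So the study's filter on weak signals could not be applied, there is no depth as in sequencing; precision is set by how many arrays there are. Ratios were turned so that the sample stands over the other channel and changed to log2. Rows were left out where a share above 0.5 of their arrays lay at the bound of the scale, an absolute log10 ratio of 2 or more. A further 216 time course rows were left out because their oligo number is below the lowest that the study's tables name. This kept 22148 of 22575 rows of the time course and 21283 of 21446 rows of the reference arrays. Oligos were named from the platform annotation where it gave 1 gene (4262 and 11813 rows) or from the study's tables, and oligos of a gene were averaged. Dye-swapped arrays were averaged to 1 sample, numbered by its 0 h RNA. No column went unassigned.

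Both lines were fitted together per time point with limma 3.58.1 in R 4.3.3, and p-values were adjusted by Benjamini-Hochberg over all 20609 (time course) or 18443 (reference) features, with a threshold of 0.05. All adjusted p-values are from limma. A mean over the 5 days and late minus early times were formed per sample number first. They share the 0 h RNA within a sample number. The p-values measure the spread between cultures of 1 line each. The fits were checked on simulated data. siTcl1 arrays were compared by fold only.

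The 6 genes and the lists were chosen with earlier results of these data known. Besides the 6 genes, the text names, per list and line, up to 2 called genes that rose most and up to 2 that fell most over the 5 days, the 3 genes most like each of the 4, *Pou5f1*, *Tcl1* and list genes past 1.5-fold at both doses. A result that this rule would name is not reported here. Promoters are from RefSeq. Alternatives covered centring, scaling, single dyes, naming, oligo choice, the filter, the fit, the replicate block and leaving out each sample. Sample numbers mark a shared 0 h RNA. Deviations of samples with the same number correlated by 0.10 to 0.51 in ZHBTc4 cells and by -0.20 to 0.39 in ZHTc6 cells.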

Additional observations from a re-analysis of the deposited data

Results flagged for a closer look

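Effects that differed between the lines by the test of the difference itself (limma) were marked for a closer look. Over the 5 days, ZHTc6 minus ZHBTc4, these were *Ccne1* at -0.76, *Ccne2* at -2.44 and *Cdkn1a* at 0.61 on the log2 scale, each with no overlap of the 3 samples per line. In late minus early times they were *Ccne2* at 1.03 and *Cdk2* at 0.72, both of which rest on the 24 h and 48 h arrays of ZHTc6 cells. Groups of 3 samples are too small for a test of single outlying samples.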

How the results depend on the processing

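Among values of single genes under other settings, 1113 counted as unchanged, while 88 lost and 22 gained a call. Unchanged means the same side of the threshold or, for siTcl1, which has no test, a small shift. Sign was compared only for values called under the main or the other setting (for siTcl1, past 1.5-fold), and 2 of these changed sign. *Ccne2* in ZHTc6 cells over the 5 days became 0.70 (adjusted p = 0.0147, limma) without the 24 h and 48 h arrays, and the difference of *Cdkn1a* between the lines in late minus early times became 0.60 (adjusted p = 0.0220) with arrays scaled to one spread. The cause of the latter was not tested. Of the 4 genes called over the 5 days in ZHBTc4 cells, 2 were called with each line fitted alone, 2 with the unmoderated test, and 2 to 4 with single samples left out. Of the 3 genes that differed at 0 h, 1 did so in the unmoderated test and 0 to 3 with single samples left out. A fit over the whole course with a replicate block called 15 of 20 values of the members in ZHBTc4 and 14 of 20 in ZHTc6 cells, the same counts as in that fit with no block. By the fits per time point they were 15 and 13. In the block fit *Ccne1* was called at 24 h, with an adjusted p of 0.000275, and at 48 h, with 0.0217, and *Ccne2* over the 5 days (adjusted p = 0.0461) in ZHTc6 cells, and *Cdk2* was not at 96 h (adjusted p = 0.0693). The 72 to 120 h means and the likeness over 8 means were chosen after seeing the data. Signal over background is unknown here, so dim oligos could not be told from bright ones.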
